A study of Homo sapiens with 12 samples.

Results

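Claudins and their partners at the tight junction were followed by their transcripts in A549, an established human lung adenocarcinoma line that grows attached to the dish. The 9 genes were the claudins CLDN1, CLDN2, CLDN3, CLDN4, CLDN7 and CLDN12, occludin (OCLN), junctional adhesion molecule A (F11R) and the scaffold ZO-1 (TJP1). They were taken by gene name from a table of 58735 genes, and all 9 passed the filter on low counts that left 17829 genes for testing. The RNA-Seq libraries formed 4 groups of 3, in which control cells and GFI1-expressing cells were each grown attached or held in suspension for 48 hours on plates to which cells do not stick, a state called floating here. GFI1 is a zinc-finger repressor of blood cell development that A549 cells do not normally make. It was delivered by a lentivirus carrying a GFP marker, and GFP-positive cells were sorted. The sources used here do not say what vector the control cells of these libraries carried, nor whether the 3 libraries of a group came from separate cultures, so p values measure the spread between these libraries.

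Tight junctions seal the space between epithelial cells near their apical side. Claudins are 4-pass membrane proteins whose extracellular loops pair across the gap and set which ions can pass, with CLDN2 forming cation and water pores and CLDN1, CLDN3, CLDN4 and CLDN7 belonging mostly to the sealing kind. Occludin and JAM-A are membrane partners, and ZO-1 ties claudins and occludin to actin. Snail and Zeb repressors bind E-boxes and are known to silence claudins and occludin, and GFI1 represses genes that carry AATC in its binding site.

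GFI1 itself was checked first. Its counts were 4 to 12 in the control libraries and 5154 to 12796 in the GFI1 libraries, which matched the labels. GFI1 mRNA was 1.93-fold higher in floating than in attached GFI1 cells (adjusted p = 2.38e-08), so the GFI1 comparisons in the 2 states were made at different GFI1 levels. Total counts ran from 17014188 to 20748677 per library. Floating GFI1 replicates 2 and 3 differed most of all replicate pairs, with a chi-square per gene of 11.8 against 2.01 to 4.99 in the other pairs. Among the epithelial markers KRT8, KRT18, KRT19, EPCAM and CDH1, the summed level was 8307 to 8822 CPM (counts relative to the scaled library size) in attached control cells and 2478 to 2564 in attached GFI1 cells. It was 5296 to 5660 in floating control cells and 1894 to 2196 in floating GFI1 cells, and nearly all of it was KRT8 and KRT18. Of the 5 markers, 4 fell with GFI1 in attached cells and KRT19 rose. Of the alveolar type II markers, ABCA3 had 1790 to 2814 counts, while the surfactant genes SFTPA1, SFTPA2, SFTPB and SFTPC had 0 to 14. ABCA3 rose slightly with GFI1 in both states (log2 0.19 ± 0.04 and 0.37 ± 0.04, adjusted p = 0.000373 and 5.39e-08), and NKX2-1 rose too, from 2 to 9 counts to 6 to 36 (log2 1.93 ± 0.54 and 2.23 ± 0.44, adjusted p = 0.00338 and 0.000115). The 3 endothelial markers summed to 0.109 to 0.602 CPM in control and 3.55 to 5.52 CPM in GFI1 libraries, with CDH5 moving from 1 to 3 counts to 52 to 89. Of the 4 fibroblast markers, DCN and COL1A2 stayed at 0 to 2 counts, while PDGFRB went from 1 to 5 counts to 35 to 66 and the sum of the list was lower with GFI1. The blood markers PTPRC and CD3E were at 0 or 1 count and HBB at 0 to 4. CD14, which made up most of the blood list's sum, had 73 to 229 counts, was lower with GFI1 in floating cells (log2 -0.83 ± 0.15, adjusted p = 2.42e-05) and rose in suspension in control cells (log2 1.20 ± 0.15, adjusted p = 5.52e-07) and GFI1 cells (log2 0.62 ± 0.16, adjusted p = 0.00438). The part of these shifts in the junction results was not tested, and in bulk libraries fewer cells with a transcript and less transcript per cell cannot be told apart.

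CLDN2, OCLN and CLDN1 were the 3 genes of the set that fell with GFI1 in both states, and their promoters are shown because GFI1 and the Snail and Zeb factors act through short DNA motifs. The sequences are from RefSeq on GRCh38.p14, each 250 bases before to 50 bases after the RefSeq start, written 5′ to 3′ on the gene's strand. Capitals mark AATC, the core letters of a GFI1 site, and CAGGTG, an E-box that Snail and Zeb factors bind, searched on both strands, so that GATT is AATC read on the other strand. These motifs were chosen after the expression values were seen, and the 2 motifs do not overlap in these windows.
CLDN1, chr3:190322397-190322696, minus strand: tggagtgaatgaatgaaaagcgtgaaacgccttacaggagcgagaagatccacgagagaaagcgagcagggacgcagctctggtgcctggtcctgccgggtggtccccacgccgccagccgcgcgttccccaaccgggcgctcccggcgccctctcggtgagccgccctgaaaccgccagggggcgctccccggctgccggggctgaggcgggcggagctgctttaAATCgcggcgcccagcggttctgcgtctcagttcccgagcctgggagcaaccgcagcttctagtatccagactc
CLDN2, chrX:106899914-106900213, plus strand: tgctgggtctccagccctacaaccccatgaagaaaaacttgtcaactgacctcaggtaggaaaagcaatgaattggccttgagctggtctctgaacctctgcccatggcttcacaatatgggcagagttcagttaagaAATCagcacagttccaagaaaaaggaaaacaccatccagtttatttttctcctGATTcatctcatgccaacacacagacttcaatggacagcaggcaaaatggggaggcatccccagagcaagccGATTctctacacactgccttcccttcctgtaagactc
OCLN, chr5:69492297-69492596, plus strand: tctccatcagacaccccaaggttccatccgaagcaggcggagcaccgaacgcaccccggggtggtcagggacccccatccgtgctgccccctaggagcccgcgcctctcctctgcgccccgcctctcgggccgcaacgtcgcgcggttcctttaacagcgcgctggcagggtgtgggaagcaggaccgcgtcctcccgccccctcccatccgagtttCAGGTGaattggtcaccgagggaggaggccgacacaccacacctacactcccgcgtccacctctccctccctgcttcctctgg

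The CLDN2 window held 3 matches to AATC, at -112, -59 and 14 from the start, and the CLDN1 window held 1, at -24. The OCLN window held 0 matches to AATC and 1 to CAGGTG, at -33. Of 27305 RefSeq promoters of this length, 69.6% held AATC and 20.6% held CAGGTG on either strand, so a match is common and says nothing of binding. The CLDN2 promoter was also poor in G and C, at 47.3% against 67% for CLDN1 and 68% for OCLN and a median of 58.3% over all promoters. RefSeq entries were found for 8 of the 9 genes, all but F11R. Of the 5 windows not printed, CLDN4, CLDN12 and TJP1 held 2 matches to AATC each, CLDN7 held 1 and CLDN3 held 0, while CLDN3 and TJP1 held 1 match to CAGGTG each.

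Levels were compared between genes only per length, as CPM per kilobase of the deposited gene length. For OCLN that length is 6761 bases, against 11259 exonic bases in the GENCODE v44 annotation. Its levels and places in the order below therefore depend on the length used, and would be lower with the longer one. In attached control cells CLDN2 stood first at 77.5 ± 0.67 (SD, n = 3), followed by CLDN1 at 27.8 ± 0.52 and TJP1 at 23.1 ± 0.66. CLDN12 followed at 4.41 ± 0.049, F11R at 3.07 ± 0.063, OCLN at 1.5 ± 0.049 and CLDN4 at 1.28 ± 0.11. CLDN3 (0.636 ± 0.34) and CLDN7 (0.542 ± 0.13) came last, and only these 2 neighbours overlapped between libraries. In attached GFI1 cells the first 3 places were closer together: TJP1 at 21.1 ± 0.54 and CLDN2 at 20.5 ± 1.5 overlapped, with CLDN1 below at 17.7 ± 0.95. F11R had moved above CLDN12, at 10.8 ± 0.45 against 6.16 ± 0.21, and OCLN was last at 0.317 ± 0.083, overlapping CLDN7. In floating control cells CLDN2 was at 99.2 ± 3.2, ahead of TJP1 at 20.2 ± 0.68 and CLDN1 at 16.7 ± 0.45. In floating GFI1 cells CLDN2 was at 34.5 ± 6.8 and TJP1 at 21.3 ± 0.37, F11R (11.2 ± 1.3) and CLDN1 (10.0 ± 0.80) overlapped, and OCLN was last again at 0.376 ± 0.078.

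**Figure D1:**
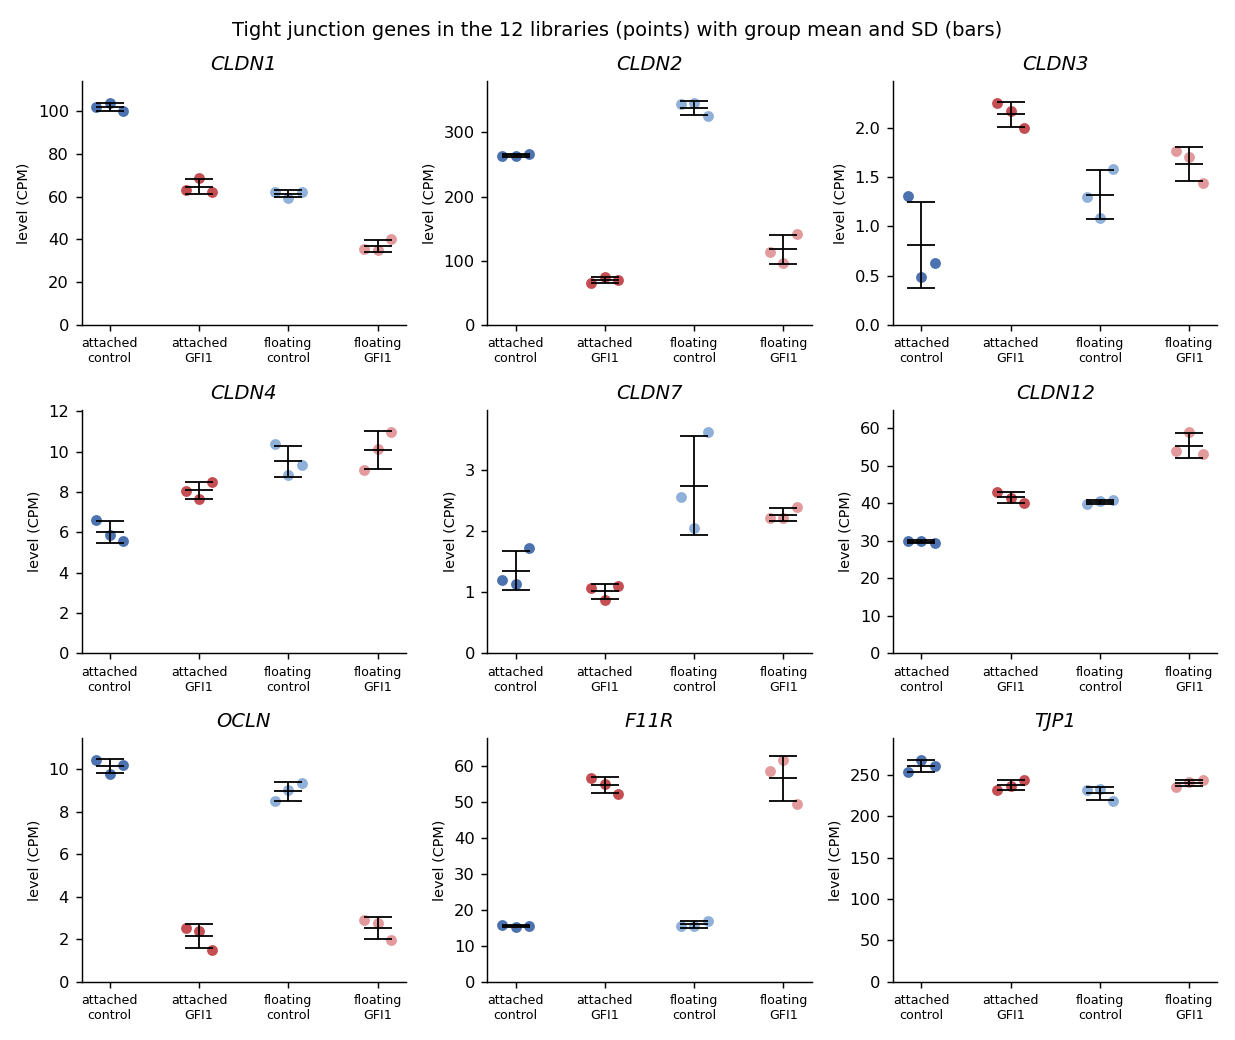
Level of each of the 9 genes in CPM (vertical axis from 0, own scale per gene) in the 12 libraries, 3 points per group, with the group mean and SD as bars. CLDN2 and OCLN are low and F11R is high in both GFI1 groups, CLDN1 is lowest in floating GFI1 cells, and TJP1 stays between 219 and 268 CPM in all libraries.

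With GFI1, the main pore claudin, CLDN2, and occludin were much lower and JAM-A was higher. Differences between groups were taken from a quasi-likelihood fit (edgeR) to all genes, as log2 fold changes ± SE, with p adjusted over the 17829 genes. In attached cells 8 of the 9 genes passed an adjusted p of 0.05, 4 higher and 4 lower, beside 62.3% of all genes tested. The median size of their log2 change was 0.65 against 0.40 over all genes. In floating cells 5 of the 9 passed, 2 higher and 3 lower, beside 60.4% of all genes, with median sizes of 0.46 and 0.38. The share of the 9 that passed in floating cells was therefore near that of genes at large. Libraries of GFI1 cells are set against different control libraries in the 2 states, so these 2 comparisons share no sample. They do share an estimate of the spread, from the same fit to all 12 libraries. Whether attached and floating cells came from the same sorted cells is not given in the sources used here.

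CLDN2 (ENSG00000165376, hg38 chrX:106900164-106930861, plus strand) was at 263, 264 and 267 CPM in the attached control libraries and at 64.8, 74.9 and 70.4 CPM in the attached GFI1 libraries. It was at 344, 346 and 326 CPM in floating control cells and at 114, 96.6 and 142 CPM in floating GFI1 cells. Every GFI1 library was thus far below every control library, and the floating GFI1 libraries were the most spread, replicate 3 being the highest. CLDN2 was 3.77-fold lower with GFI1 in attached cells (log2 -1.91 ± 0.08, adjusted p = 1.76e-16) and 2.88-fold lower in floating cells (log2 -1.52 ± 0.08, adjusted p = 9.45e-15). Its exons share 341 bases with RIPPLY1, an antisense gene with 1 to 22 counts that was also lower with GFI1 in attached cells (log2 -3.37 ± 0.62, adjusted p = 3.69e-05). Whether counting used strand is not given in the sources used here.

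CLDN1 (ENSG00000163347, chr3:190305701-190322475, minus strand), a sealing claudin, was at 102, 104 and 99.9 CPM in attached control cells and at 63.2, 68.6 and 62.1 CPM in attached GFI1 cells. It was at 62.2, 59.4 and 62.2 CPM in floating control cells and at 35.4, 34.8 and 40.1 CPM in floating GFI1 cells. The GFI1 and control libraries did not overlap within either state, and attached GFI1 cells lay close to floating control cells. CLDN1 fell 1.57-fold with GFI1 in attached cells (log2 -0.65 ± 0.05, adjusted p = 3.91e-11), and the floating cells showed a 1.67-fold fall (log2 -0.74 ± 0.06, adjusted p = 2.73e-11).

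OCLN (ENSG00000197822, chr5:69492292-69558104, plus strand) had the largest fall of the 9. It was at 10.4, 9.78 and 10.2 CPM in attached control cells, from 175, 180 and 178 counts, and at 2.54, 2.40 and 1.5 CPM in attached GFI1 cells, from 45, 52 and 30 counts. Floating control libraries were at 8.48, 9.03 and 9.35 CPM and those with GFI1 at 2.92, 2.76 and 1.94 CPM. The lowest control library was well above the highest GFI1 library in both states. Occludin mRNA was 4.72-fold lower in attached cells (log2 -2.24 ± 0.16, adjusted p = 6.54e-12) and 3.54-fold lower in floating cells (log2 -1.82 ± 0.16, adjusted p = 3.44e-10). Its partial copy OCLNP1 held 0 to 5 counts.

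F11R (ENSG00000158769, chr1:160995211-161021348, minus strand), the adhesion receptor JAM-A, went the other way. It was at 15.8, 15.2 and 15.6 CPM in attached control cells and at 15.4, 15.5 and 17 CPM in floating control cells. Attached GFI1 libraries were at 56.7, 55.0 and 52.2 CPM and floating GFI1 libraries at 58.5, 61.6 and 49.4 CPM. All GFI1 libraries were above all control libraries, whatever the state. The rise was 3.52-fold in attached cells (log2 1.81 ± 0.08, adjusted p = 9.88e-17) and 3.53-fold in floating cells (log2 1.82 ± 0.08, adjusted p = 9.32e-17). A readthrough gene, ENSG00000270149, shares 36.6% of the exonic bases of F11R on the same strand and held 0 to 10 counts, so how reads in the shared exons were assigned bears on the F11R level.

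CLDN12 (ENSG00000157224, chr7:90383721-90513402, plus strand), a claudin that lacks the usual ZO-binding tail, rose by a modest and even amount. It went from 29.8, 30.0 and 29.4 CPM to 42.9, 41.5 and 40.2 CPM in attached cells. Floating control libraries were at 39.7, 40.5 and 40.7 CPM and their GFI1 counterparts at 53.9, 59.0 and 53.0 CPM. The log2 change with GFI1 was 0.48 ± 0.06 among attached libraries (adjusted p = 5.91e-08) and 0.46 ± 0.05 among floating libraries (adjusted p = 6.15e-08). Same-strand genes share 17.6% of its exonic bases.

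CLDN3 and CLDN4, neighbours on chromosome 7 and both receptors of a clostridial toxin, were higher with GFI1 in attached cells. CLDN3 (ENSG00000165215, chr7:73768997-73770270, minus strand) was scarce, with 22, 9 and 11 counts in attached control and 40, 47 and 40 counts in attached GFI1 cells. The rise was 2.66-fold (log2 1.41 ± 0.29, adjusted p = 0.000185). In floating cells its counts were 22, 18 and 28 in control and 32, 31 and 29 with GFI1, the CPM of the groups overlapped, and the log2 difference was 0.30 with a 95% interval from -0.28 to 0.88 (adjusted p = 0.375). CLDN4 (ENSG00000189143, chr7:73799542-73832693, plus strand) was at 6.61, 5.87 and 5.57 CPM in attached control and at 8.06, 7.66 and 8.51 CPM in attached GFI1 cells, without overlap. It rose 1.34-fold (log2 0.43 ± 0.12, adjusted p = 0.00301). Floating control (10.4, 8.85 and 9.35 CPM) and floating GFI1 cells (9.10, 10.1 and 11 CPM) overlapped, with a log2 difference of 0.08 and a 95% interval from -0.14 to 0.31 (adjusted p = 0.525).

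CLDN7 (ENSG00000181885, chr17:7259903-7263983, minus strand), which binds EPCAM in epithelia, was the 1 gene of the 9 that did not pass in attached cells. Attached control libraries had 20, 21 and 30 counts (1.19, 1.14 and 1.72 CPM) and attached GFI1 libraries 19, 19 and 22 (1.07, 0.877 and 1.1 CPM). The log2 difference was -0.41 with a 95% interval from -1.0 to 0.18 (adjusted p = 0.216), and in floating cells it was -0.28, from -0.75 to 0.19 (adjusted p = 0.305). At this depth only large changes could be detected.

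TJP1 (ENSG00000104067, chr15:29699367-29968865, minus strand), the ZO-1 scaffold, moved least. It was at 253, 268 and 261 CPM in attached control, 232, 237 and 244 CPM in attached GFI1, 231, 233 and 219 CPM in floating control and 236, 242 and 243 CPM in floating GFI1 cells. With GFI1 it fell by 0.13 on the log2 scale in attached cells (± 0.04, adjusted p = 0.00785). This call was lost under upper quartile scaling (-0.08, adjusted p = 0.0956) and without attached GFI1 replicate 1 (-0.11, adjusted p = 0.0515), and under scaling by library size alone the value was 0.02. In floating cells the difference was 0.08, from -0.01 to 0.16 (adjusted p = 0.114), and it passed under upper quartile scaling, library size alone and a stricter count filter, at 0.10 to 0.21. Library size alone moved the median of all genes to 0.14 in both GFI1 comparisons, so the sign of so small a change turns with the scaling.

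**Figure D2:**
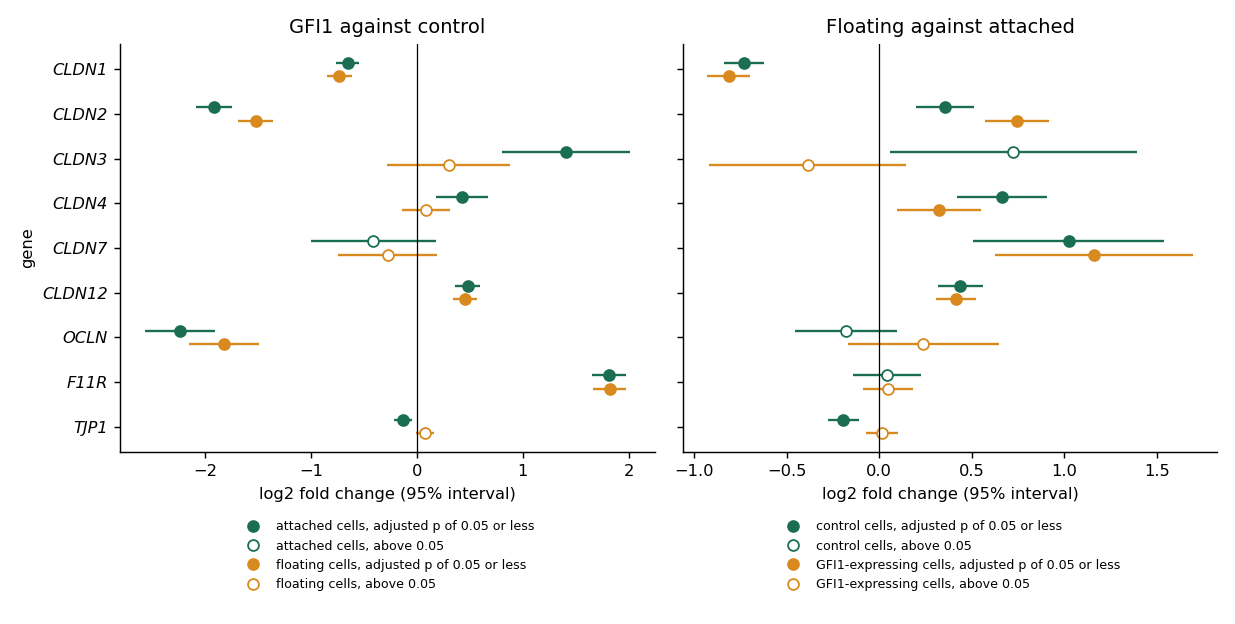
Log2 fold changes (horizontal axis) with 95% intervals for the 9 genes, GFI1 against control on the left and floating against attached on the right, filled where the adjusted p was 0.05 or less. With GFI1, CLDN2 and OCLN lie between -2.24 and -1.52 and F11R at 1.81 and 1.82, while in suspension CLDN1 is the gene farthest below 0.

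Suspension changed 5 claudins in both kinds of cells, 1 downwards and 4 upwards. In control cells 6 of the 9 genes passed, 4 higher and 2 lower, beside 40.1% of all genes tested, and in GFI1 cells 5 passed, 4 higher and 1 lower, beside 31.3%. The median sizes were 0.44 and 0.39 on the log2 scale, against 0.24 and 0.19 over all genes. CLDN1 fell and CLDN2, CLDN4, CLDN7 and CLDN12 rose in both kinds of cells, and the 2 comparisons share no library, only the estimate of the spread.

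CLDN1 was 1.66-fold lower in floating than attached control cells (log2 -0.73 ± 0.05, adjusted p = 3.14e-11) and 1.76-fold lower in floating GFI1 cells (log2 -0.81 ± 0.06, adjusted p = 3.71e-11). CLDN2 rose in suspension, 1.28-fold in control cells (log2 0.36 ± 0.08, adjusted p = 0.000498) and 1.68-fold in GFI1 cells (log2 0.75 ± 0.08, adjusted p = 1.33e-07). So GFI1 and suspension moved CLDN1 the same way and CLDN2 in opposite ways. CLDN12 rose by 0.44 ± 0.06 in control (adjusted p = 9.11e-07) and 0.41 ± 0.05 in GFI1 cells (adjusted p = 1.06e-06).

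CLDN7 had the largest rise in suspension. Its floating libraries held 43, 34 and 64 counts in control cells, 2.03-fold above attached by CPM (log2 1.02 ± 0.25, adjusted p = 0.00172), and 40, 40 and 48 counts in GFI1 cells, 2.23-fold above (log2 1.16 ± 0.26, adjusted p = 0.00112). No floating library overlapped an attached library of the same cells. CLDN4 rose by 0.66 ± 0.12 in control cells (adjusted p = 5.57e-05) and by 0.32 ± 0.11 in GFI1 cells (adjusted p = 0.0250). The latter call was lost with DESeq2 (adjusted p = 0.0591) and without attached GFI1 replicate 1 or 2 or floating GFI1 replicate 2 or 3 (adjusted p = 0.0603, 0.0926, 0.0681 and 0.125). CLDN3 differed by 0.73 in control cells, with a 95% interval from 0.06 to 1.39 (adjusted p = 0.0772), and by -0.39 in GFI1 cells, from -0.92 to 0.14 (adjusted p = 0.283). The first value rested on attached control replicate 1, whose 22 counts were above the 9 and 11 of the other libraries: without it the log2 difference was 1.24 and passed (adjusted p = 0.00667).

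The other 3 components moved little in suspension. OCLN differed by -0.18 in control cells, with a 95% interval from -0.45 to 0.10 (adjusted p = 0.315), and by 0.24 in GFI1 cells, from -0.17 to 0.65 (adjusted p = 0.404). F11R differed by 0.04, from -0.14 to 0.22, in control cells (adjusted p = 0.759) and by 0.05, from -0.09 to 0.18, in GFI1 cells (adjusted p = 0.645), which leaves room only for changes far below its GFI1 effect. TJP1 fell by 0.19 on the log2 scale in control cells (± 0.04, adjusted p = 0.000490) and differed by 0.01, from -0.07 to 0.10, in GFI1 cells (adjusted p = 0.838).

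Whether suspension acted differently in the GFI1 cells was tested as an interaction, in which 2 of the 9 genes passed, beside 10.8% of all genes. The suspension effect on CLDN2 was 0.39 ± 0.11 higher on the log2 scale in GFI1 than in control cells (adjusted p = 0.0254), and that on TJP1 was 0.21 ± 0.06 higher (adjusted p = 0.0211). Both calls were close to the threshold. That of CLDN2 was lost with DESeq2 (0.38, adjusted p = 0.176) and without attached control replicate 3, attached GFI1 replicate 1 or 3, or floating control replicate 3 (adjusted p = 0.0567, 0.0845, 0.0529 and 0.0666). Without floating GFI1 replicate 3, the library with the most CLDN2 of its group, the call was kept but the difference was only 0.23. That of TJP1 was lost without attached control replicate 2, attached GFI1 replicate 1 or floating control replicate 3 (adjusted p = 0.0619, 0.0642 and 0.0720). CLDN3 had the widest difference, -1.11 with a 95% interval from -1.96 to -0.26 (adjusted p = 0.0894), which passed without attached control replicate 1 (-1.63, adjusted p = 0.0131). For CLDN1 the interval ran from -0.24 to 0.08, for CLDN12 from -0.19 to 0.14 and for F11R from -0.22 to 0.23, while for OCLN it ran from -0.08 to 0.91.

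The claudin transcripts were then added up over the 24 numbered claudin genes of the table in CPM per kilobase. The sum was 123 ± 0.36 in attached control cells and 60.8 ± 1.7 in attached GFI1 cells (SD, n = 3). It was 138 ± 3.0 in floating control and 70.9 ± 7.8 in floating GFI1 cells. The GFI1 libraries ran from 59.6 to 79.5 and the control libraries from 123 to 139, so the groups were far apart. CLDN2 made up 63.0% ± 0.72 of the sum in attached control, 33.8% ± 1.7 in attached GFI1, 72.1% ± 0.82 in floating control and 48.3% ± 4.2 in floating GFI1 cells. CLDN1, which had fallen less than the sum, rose from 22.6% ± 0.36 to 29.0% ± 0.81 of it with GFI1 in attached cells, and was at 12.2% ± 0.51 and 14.2% ± 0.53 in the floating groups. CLDN12 went from 3.59% ± 0.030 to 10.1% ± 0.48 when attached and from 4.35% ± 0.14 to 11.7% ± 1.9 when floating. CLDN15, which is not among the 9 genes and was singled out here after its share was seen, went from 5.10% ± 0.15 to 12.9% ± 0.71 and from 4.87% ± 0.29 to 12% ± 1.2. No test was made on these shares, which depend on one another.

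**Figure D3:**
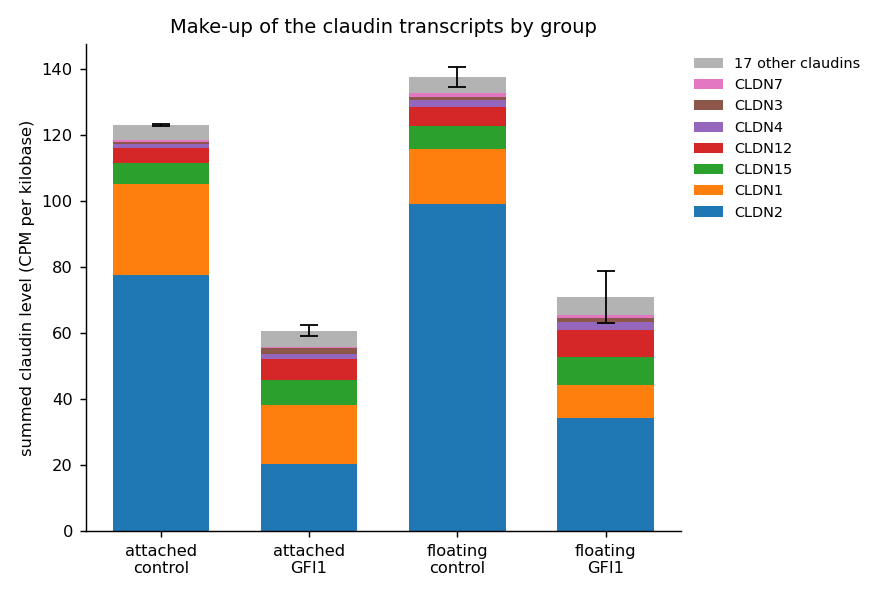
Summed level of 24 claudin genes (vertical axis, CPM per kilobase) in the 4 groups, split by gene, with the SD of the sum over 3 libraries. The sum falls from 123 to 60.8 with GFI1 when attached and from 138 to 70.9 when floating, and most of the loss is in the CLDN2 part of the bar.

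A wider set of 54 tight junction genes placed these genes in context, of which 38 had enough counts to test. It held other claudins, other membrane proteins, scaffolds and apical polarity proteins. With GFI1, 29 of 38 passed in attached cells (12 higher, 17 lower) and 23 in floating cells (10 higher, 13 lower), which was 76.3% and 60.5% of the set beside 62.3% and 60.4% of all genes tested. The floating count was thus at the background. In suspension 14 passed in control cells (7 higher, 7 lower) and 10 in GFI1 cells (4 higher, 6 lower), or 36.8% and 26.3% beside 40.1% and 31.3% of all genes. The medians of its log2 changes were 0.02 and -0.07 for GFI1 and 0.04 and 0.01 for suspension, against -0.01, 0.01, 0.01 and 0.00 over all genes.

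Of 7 other claudins tested, 4 rose and 1 fell with GFI1 in attached cells, or 71.4% called beside 62.3% of all genes, of which 29.5% rose and 32.8% fell. CLDN10, a kidney paracellular channel, had the largest rise, from 3 or 4 counts to 18 to 29 (log2 2.37 ± 0.41, adjusted p = 1.86e-05), although 46% of its exonic bases are shared with DZIP1. CLDN23 fell (log2 -0.40 ± 0.14, adjusted p = 0.0162), although its groups overlapped, a call lost with scaling by library size alone (-0.25, adjusted p = 0.119) and without attached control replicate 2 or attached GFI1 replicate 2 or 3 (adjusted p = 0.0656, 0.0677 and 0.0861). CLDN9 showed the widest swing: it had 1 to 3 counts in floating control and 18 to 28 in floating GFI1 libraries. Its mean was 7.12-fold above a floor of 3 counts per library set for floating control. The fitted log2 change was 3.35, with a 95% interval from 2.32 to 4.37 (adjusted p = 2.24e-06). Attached control libraries held only 4 to 9 counts, with a mean 2.35-fold above the same floor. The fitted fall of CLDN9 from attached to floating control cells was log2 -1.77, with a 95% interval from -3.03 to -0.51 (adjusted p = 0.0225). This call was lost without attached control replicate 2 or 3 or floating control replicate 1 or 2 (adjusted p = 0.0736, 0.0795, 0.0569 and 0.0914). In floating GFI1 cells it rose against attached ones (log2 1.25 ± 0.36, adjusted p = 0.00928), except without attached GFI1 replicate 2 (adjusted p = 0.0703).

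Among 6 other membrane proteins, 3 fell and 0 rose with GFI1 in attached cells, or 50% called beside 62.3% of all genes. CXADR, the coxsackie and adenovirus receptor of the junction, was at 25.1 ± 0.86 CPM in attached control, 9.01 ± 0.88 in attached GFI1, 35.3 ± 2.1 in floating control and 9.35 ± 1.4 in floating GFI1 cells. Its fall in floating cells was 3.76-fold (log2 -1.91 ± 0.09, adjusted p = 2.10e-15), its fall in attached cells 2.79-fold (log2 -1.48 ± 0.10, adjusted p = 6.39e-13), and it rose with suspension in control cells (log2 0.49 ± 0.08, adjusted p = 2.96e-05). ESAM, an endothelial relative of JAM-A, went from 24 to 30 counts to 8 in each attached GFI1 library (log2 -1.93 ± 0.33, adjusted p = 1.44e-05). LSR, a tricellular junction protein, rose in suspension in control (log2 0.40 ± 0.08, adjusted p = 0.000300) and GFI1 cells (log2 0.30 ± 0.08, adjusted p = 0.00542). JAM3 fell in floating control cells (log2 -0.39 ± 0.14, adjusted p = 0.0304), but shares 35.6% of its exonic bases with NCAPD3, and the call was lost without attached control replicate 2 or 3 or floating control replicate 1 or 2 (adjusted p = 0.0557, 0.0912, 0.0764 and 0.145), with DESeq2 (0.0755) and with no filter on low counts (0.0639).

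Of 15 scaffolds and cytoplasmic partners, 14 passed with GFI1 in attached cells, 8 higher and 6 lower, and 13 in floating cells, 7 higher and 6 lower. These were 93.3% and 86.7% of the list, beside 62.3% and 60.4% of all genes. MAGI3, a scaffold with many PDZ domains, fell in both states (log2 -0.98 ± 0.07 and -1.46 ± 0.07, adjusted p = 1.77e-12 and 1.31e-15), and its relative MAGI2 rose in both (log2 0.73 ± 0.19 and 0.82 ± 0.18, adjusted p = 0.00181 and 0.000367). TJP3 (ZO-3), a relative of TJP1, rose in suspension, from 19.7 ± 1.9 to 40.0 ± 1.3 CPM in control cells (log2 1.03 ± 0.08, adjusted p = 4.99e-11) and by 0.89 ± 0.09 in GFI1 cells (adjusted p = 9.72e-09). With GFI1, TJP3 was lower in attached (log2 -0.82 ± 0.09, adjusted p = 7.59e-09) and floating cells (log2 -0.96 ± 0.07, adjusted p = 3.15e-11). AMOTL2, an angiomotin that binds YAP, had the largest change in suspension, from 103 ± 2.5 to 22.3 ± 1.7 CPM in control cells (log2 -2.21 ± 0.06, adjusted p = 6.26e-20) with a log2 change of -1.64 ± 0.05 in GFI1 cells (adjusted p = 5.43e-17).

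Of 10 apical polarity genes, 7 fell and 0 rose with GFI1 in attached cells, and 5 fell and 0 rose in floating cells. The 70% and 50% called were near the 62.3% and 60.4% of all genes, of which 32.8% and 31.1% fell. The median of the list was -0.35 in attached and -0.22 in floating cells, against -0.01 and 0.01 for all genes. PARD3, the Par complex scaffold, went from 388 ± 1.5 to 146 ± 3.9 CPM when attached and from 404 ± 10 to 120 ± 2.8 CPM when floating (log2 -1.75 ± 0.04 in floating, adjusted p = 6.40e-22). PATJ, of the Crumbs complex, went from 39.1 ± 0.99 to 14.5 ± 2.0 CPM in attached cells (log2 -1.42 ± 0.08, adjusted p = 2.06e-14). CRB3 was lower with GFI1 in attached (log2 -1.17 ± 0.18, adjusted p = 3.48e-06) and floating cells (log2 -1.65 ± 0.17, adjusted p = 4.75e-09). In suspension 1 of the 10 rose and 2 fell in control cells, or 30% called beside 40.1% of all genes. CRB3 rose (log2 0.67 ± 0.15, adjusted p = 0.00103), and PARD6G lay at the threshold (log2 -0.32 ± 0.13, adjusted p = 0.0492). PARD6G lost its call in 18 of 20 alternatives, the removal of any library but attached GFI1 replicate 1 or 3 included (adjusted p from 0.0503 to 0.194). In GFI1 cells 2 fell and 0 rose, or 20% called beside 31.3% of all genes, PARD3 among them (log2 -0.28 ± 0.04, adjusted p = 7.88e-06).

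**Figure D4:**
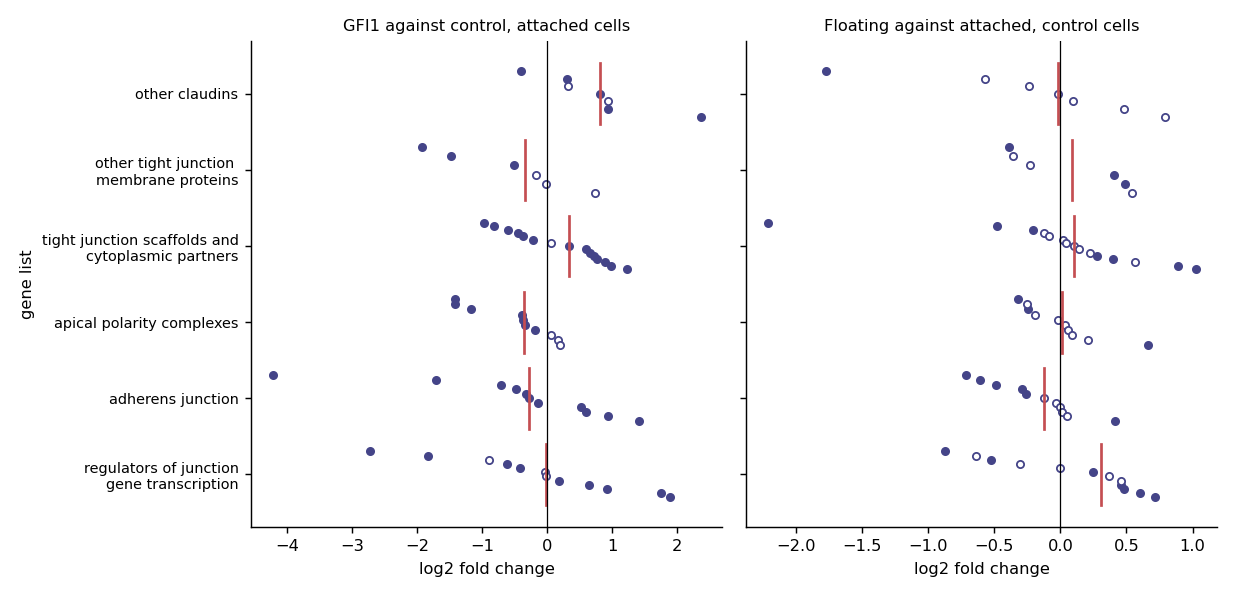
Log2 fold changes of the tested genes of 6 lists, GFI1 against control in attached cells on the left and floating against attached control cells on the right. Each point is a gene, filled where the adjusted p was 0.05 or less, and red lines mark list medians. The polarity list lies mostly below 0 on the left, at a median of -0.35, and scaffolds lie on both sides.

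The adherens junction lies next to the tight junction, and all 11 of its tested genes passed with GFI1 in attached cells, 4 higher and 7 lower, beside 62.3% of all genes. E-cadherin (CDH1) went from 120 ± 2.2 to 6.45 ± 0.67 CPM in attached cells (log2 -4.22 ± 0.07, adjusted p = 3.23e-25). Floating cells went from 85.4 ± 3.5 to 3.99 ± 0.31 CPM (log2 -4.42 ± 0.08, adjusted p = 1.10e-24). N-cadherin (CDH2) was lower too, at 31.5 ± 2.3 in attached control and 9.66 ± 0.44 CPM in attached GFI1 cells. In suspension CDH2 fell in control (log2 -0.61 ± 0.08, adjusted p = 4.95e-07) and GFI1 cells (log2 -0.70 ± 0.10, adjusted p = 7.27e-06). Plakoglobin (JUP) rose with GFI1 in attached cells, from 189 ± 5.8 to 504 ± 8.4 CPM (log2 1.41 ± 0.05, adjusted p = 5.15e-19), and in suspension in control cells (log2 0.42 ± 0.05, adjusted p = 6.26e-08). NECTIN3 rose with GFI1 in floating cells (log2 1.55 ± 0.05, adjusted p = 4.77e-19) and fell in suspension in control cells (log2 -0.72 ± 0.05, adjusted p = 3.68e-11).

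Of 12 tested regulators of junction genes, 5 rose and 4 fell with GFI1 in each state, or 75% called beside 62.3% of all genes in attached and 60.4% in floating cells. SNAI1, a repressor of CDH1, claudins and occludin, went from 43 to 64 counts to 187 to 232 in attached cells (log2 1.89 ± 0.15, adjusted p = 3.47e-11). Its relative SNAI2 had the opposite sign, at 16 to 28 and 0 to 7 counts (log2 -2.72 ± 0.49, adjusted p = 3.39e-05 in attached, and -2.44 ± 0.57, adjusted p = 0.000618 in floating cells). ZEB2 was scarce throughout, at 0 to 5 counts in floating control and 10 to 31 in floating GFI1 libraries (log2 2.95 ± 0.57, adjusted p = 8.59e-05). Its relative ZEB1, added here after its values were seen, was more abundant, at 493 to 538 counts in attached control and 803 to 1045 in attached GFI1 libraries. ZEB1 was higher with GFI1 in both states (log2 0.64 ± 0.06 and 0.75 ± 0.06, adjusted p = 7.10e-10 and 4.37e-11). In suspension, HNF4A, an activator of epithelial genes, rose in control cells (log2 0.72 ± 0.16, adjusted p = 0.000593) and KLF4 rose in control (log2 0.24 ± 0.08, adjusted p = 0.0236) and GFI1 cells (log2 0.60 ± 0.11, adjusted p = 0.000122). With GFI1, KLF4 fell in attached and floating cells (log2 -1.83 ± 0.10 and -1.48 ± 0.09, adjusted p = 2.08e-14 and 4.16e-13). HNF4A rose with GFI1 in attached cells (log2 0.93 ± 0.15, adjusted p = 7.63e-06), and in floating cells it lay at the threshold with overlapping groups (log2 0.32 ± 0.14, adjusted p = 0.0498). GRHL1 fell in control cells (log2 -0.87 ± 0.31, adjusted p = 0.0274), which was lost without attached control replicate 2 or floating control replicate 2 or 3 (adjusted p = 0.227, 0.0962 and 0.0782).

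For the 3 genes of the set whose group means spanned the widest range, the protein-coding genes with the most similar profile were found by Euclidean distance between centred log2 CPM means of the 4 groups. CLDN2, with a range of 2.27, was closest to DPYSL3 (distance 0.076), EBF4 (0.079) and DISC1 (0.080). OCLN, with a range of 2.22, was closest to TWIST2 (0.096), APBB1IP (0.130) and PAX2 (0.151). F11R, with a range of 1.85, was closest to ADARB1 (0.065), PIPOX (0.127) and DNAI7 (0.130). With 4 means per gene and 17829 genes, near neighbours of this kind are a description of shape alone.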

How the data were processed

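The authors isolated RNA with TRIzol, selected mRNA on poly-T beads and sequenced it on an Illumina NovaSeq system. The deposited values are raw counts per gene. The study's methods name Hisat2 and featureCounts on GRCh38, while the submitters' processing notes name Bowtie2 and HTSeq on hg38, and annotation release and strandedness are not given in the sources used here. Gene overlaps were read from GENCODE v44 (99.1% of identifiers matched).

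In R 4.3.3, edgeR 4.0.16 was run on the 12 libraries (filterByExpr, minimum count 10, minimum total 15, TMM factors 0.939 to 1.06), with 4 group means and 5 contrasts. Two-sided quasi-likelihood p was adjusted by Benjamini-Hochberg within each contrast (threshold 0.05). The biological coefficient of variation, as the root of the common dispersion, was 4.86%. SE is the size of the log2 change over the root of F. CPM was scaled by TMM. Alternatives were DESeq2 1.42.0, other scalings and filters, a replicate block, the groups of a contrast alone and each library left out. The code was tested on simulated data.

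Named were the 9 genes, GFI1, the highest and lowest called gene of each list in each comparison, and the 3 nearest profiles of the 3 widest-ranging genes, and 1 gene that this rule names is not reported here. The 9 genes and all lists were chosen with earlier results of these data known. For the interaction, the genes named by this rule stand with the results flagged for a closer look.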

Additional observations from a re-analysis of the deposited data

Results flagged for a closer look

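For 11 genes named here, the suspension effect differed between GFI1 and control cells in the interaction test (edgeR, adjusted p of 0.05 or less). All but CLDN2 and TJP1 stand here because they passed this test, so 11 is not a share of any list. Most of them are also named above for other comparisons. It was passed by 2 of the 9 genes and 8 of 38 in the wider list (21.1%). Of the adherens junction genes 3 of 11 passed (27.3%) and of the regulators 1 of 12 (8.33%), beside 10.8% of all genes tested. CLDN2 rose more in floating GFI1 than in floating control cells, by 0.39 on the log2 scale, and TJP1 fell in floating control cells but not detectably in floating GFI1 cells, a difference of 0.21.

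Among the other claudins, CLDN9 had the widest difference, 3.02 ± 0.71 (adjusted p = 0.00543), but it had 1 to 3 counts in floating control cells, so the size is not well fixed. Of the other tight junction genes, CXADR differed by -0.43 (adjusted p = 0.0407), CGNL1, paracingulin, by -1.21 (adjusted p = 0.0170) and AMOTL2 by 0.58 (adjusted p = 1.27e-05). Of the polarity genes, PARD3 differed by -0.34 (adjusted p = 0.000181) and PARD6G by 0.58 (adjusted p = 0.0396). JUP differed by -0.45 (adjusted p = 2.48e-05), NECTIN3 by 0.61 (adjusted p = 1.04e-06) and the epithelial factor ELF3 by -0.26 (adjusted p = 0.0101). The call of CXADR was lost in 9 of 19 alternatives, that of PARD6G in 10 and that of CGNL1 in 3. The highest adjusted p came without attached GFI1 replicate 3 for CXADR (-0.34, adjusted p = 0.169), without floating control replicate 2 for PARD6G (0.50, adjusted p = 0.113) and without attached GFI1 replicate 2 for CGNL1 (-1.06, adjusted p = 0.0646). Groups of 3 libraries were too small for a test of single outlying libraries.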

How the results depend on the processing

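In the 4 pairwise comparisons, the number of the 9 genes that passed was 7 or 8, 5 or 6, 6 or 7, and 4 or 5 under all alternatives run, and CLDN1, CLDN2, CLDN12, OCLN and F11R kept their GFI1 calls throughout. The interaction was less stable: 1 gene of the 9 passed with DESeq2 and 0 to 3 when a library was left out, and of the wider list 4 to 8. Signs turned for values near 0. With library size alone TJP1 was at 0.016 with GFI1 in attached cells. The F11R interaction was -0.006 with DESeq2 and with RLE size factors, -0.013 with library size alone and -0.002 with at least 10 counts in every library, and ran from -0.078 to 0.097 with a library left out. With a library left out, the suspension effect on F11R lay between -0.010 and 0.066 for control and between -0.035 and 0.136 for GFI1 cells, and that on TJP1 from -0.004 to 0.037 in GFI1 cells. The interaction ran from -0.072 to 0.396 for CLDN7 and from -0.090 to 0.008 for CLDN12. The causes were not tested.

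Scaling by library size alone raised the share of higher calls from 47.4% to 61.5% (attached) and from 48.5% to 61.4% (floating) for GFI1 over all genes, and gave summed claudin levels of 116, 63.6, 132 and 74.4 CPM per kilobase for attached control, attached GFI1, floating control and floating GFI1 cells. A filter of at least 10 counts in every library left CLDN3 untested, and the groups of a contrast alone could give no interaction. Same-numbered libraries did not deviate together (r from -0.031 to 0.031 in 18 pairs), and the replicate block changed none of the calls of the 9 genes, with 8, 5, 6, 5 and 2 called and 11054, 10713, 7110, 5546 and 1904 calls over all genes against 11102, 10770, 7152, 5577 and 1919 without it. At 9 to 64 counts, CLDN3 and CLDN7 allow only large changes to be seen.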

Other observations

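The 3 floating GFI1 libraries differed in GFI1 itself, at 545, 706 and 430 CPM in replicates 1 to 3. CLDN2 was highest (142 CPM) and F11R lowest (49.4 CPM) in the library with the least GFI1, and CLDN2 was lowest (96.6 CPM) and F11R highest (61.6 CPM) in that with the most. OCLN had another order, at 2.92, 2.76 and 1.94 CPM. Replicates 2 and 3 of this group also differed over all genes more than any other replicate pair (chi-square per gene 11.8 against 2.01 to 4.99). The attached GFI1 libraries had GFI1 at 290, 294 and 286 CPM. These levels lay close together. Among these libraries CLDN2 was highest (74.9 CPM) in the library with the most GFI1, and F11R lowest (52.2 CPM) in that with the least. F11R was highest (56.7 CPM) and CLDN2 lowest (64.8 CPM) in replicate 1, which lay between them in GFI1. Between the 2 states, floating GFI1 cells had more GFI1 than attached ones and also more CLDN2, at means of 117 and 70.0 CPM. The order in the floating group was seen after the fact, and with 3 libraries no test was made.

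MORC4, which lies on the opposite strand within the CLDN2 locus and shares no exonic base with it, was chosen after its values were seen. It had 1185 to 7149 counts and was lower with GFI1 in both states (log2 -2.25 ± 0.04, adjusted p = 9.21e-24, when attached and -2.32 ± 0.04, adjusted p = 6.21e-24, when floating). Unlike CLDN2 it fell in suspension, by 0.25 on the log2 scale in control cells (± 0.04, adjusted p = 1.73e-05) and by 0.32 in GFI1 cells (± 0.05, adjusted p = 3.89e-06). USF1, the nearest tested gene on the higher-coordinate side of F11R, rose with GFI1 in attached (log2 0.81 ± 0.05, adjusted p = 9.47e-13) and floating libraries (log2 0.79 ± 0.05, adjusted p = 1.39e-12). METTL27, 1900 bases from CLDN4, rose as well (log2 1.04 ± 0.11, adjusted p = 5.06e-09, when attached and 0.88 ± 0.10, adjusted p = 6.73e-08, when floating). CLDN4 itself was at 0.08 when floating (adjusted p = 0.525). USF1 and METTL27 were also chosen after their values were seen, and other neighbours were mixed. With GFI1 in attached cells, P3H2 and CLDN16, on the 2 sides of CLDN1, were at -0.59 and 0.94 (adjusted p = 9.01e-10 and 0.0604). GTPBP10, which overlaps CLDN12, was at -0.02 (adjusted p = 0.821). These neighbours are given as values, and nothing was tested about a shared cause.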
